A study of Homo sapiens with 6 samples.

Results

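The histone genes of the HIST clusters were described across 6 RNA sequencing libraries of Daoy cells. Daoy is an established human cell line derived from a medulloblastoma, a tumour of the cerebellum. They are the protein-coding genes whose GENCODE release 29 symbol begins with HIST1H, HIST2H, HIST3H or HIST4H, and 71 of the 60554 gene identifiers in the count files met that rule. Another 19 loci with such symbols are annotated as pseudogenes and were not counted as members. Cells of 3 libraries received lentivirus for wild-type ZBTB7B (WT), and cells of the other 3 received lentivirus for ZBTB7B with R363L in the zinc-finger domain (ZFmut). Virus stayed on the cells for 72 hr (multiplicity of infection 15), within 4 days of culture in 10% serum. Both groups therefore carried virus and an added ZBTB7B transgene, and no library without transgene was analysed here. The promoter of the transgene is not given in the labels, and all libraries are from 1 cell line. All differences are WT minus ZFmut with 3 libraries per group, and the labels do not tell whether replicates are separate cultures. The p-values thus reflect spread among these libraries, which may be technical.

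Histones H2A, H2B, H3 and H4 form the core around which DNA is wrapped, and H1 binds the linker between cores. The genes of the HIST clusters are switched on in S phase, when new DNA must be packaged, under the cofactor NPAT. Most of their messages carry no poly(A) tail: they end just after a short stem-loop, which is bound by the protein SLBP, and U7 snRNP guides the cut that makes this end. Several of the genes can also give longer messages that pass the stem-loop and end at an ordinary poly(A) signal, as is known from cells that leave the cycle or differentiate. Some histone variants outside the clusters, such as H3F3A and H2AFZ, are made through the whole cycle from messages with a poly(A) tail.

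The stem-loop is shown first because it is the feature that sets these messages apart. Its letters were searched in the annotated 3′ untranslated regions (UTRs) of GENCODE release 29 transcripts, on the GRCh38 build, and were found in 31 of the 36 members that have an annotated 3′ UTR. The other 35 members have none annotated, so nothing could be searched there. All 31 lay 22 to 67 bases after the stop codon, with a median of 36 bases. Capitals mark the stem and lower case the loop, written 5′ to 3′ on the gene's strand with T for U. The examples are HIST1H2AC (chr6:26124669-26124684, plus strand), HIST1H2BD (chr6:26158587-26158602, plus strand), HIST1H4H (chr6:26285131-26285146, minus strand), HIST1H4I (chr6:27139654-27139669, plus strand) and HIST1H2AG (chr6:27133515-27133530, plus strand).
HIST1H2AC: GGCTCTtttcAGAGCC
HIST1H2BD: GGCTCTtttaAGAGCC
HIST1H4H: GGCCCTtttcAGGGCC
HIST1H4I: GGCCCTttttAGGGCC
HIST1H2AG: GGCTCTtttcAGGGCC
The form of HIST1H2AC was present in 17 members (6 of type H2A, 8 of H2B and 3 of H3), and that of HIST1H2BD in 5 (3 of H2B and 2 of H3). The H4 genes had stems of their own: the form of HIST1H4H was found in 5 members and that of HIST1H4I in 3, all of type H4. HIST1H2AG alone had the last form, in which the H2A, H2B and H3 left arm is joined to the right arm seen in H4 genes.

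Gene counts per library ranged from 22236214 to 102730428. CPM are counts per 1000000 counts of the normalised library size. The limit that a count of 0 allows is 3 counts, for counting error only. In 1 library it corresponded to between 0.0292 and 0.135 per 1000000 gene counts, before normalisation. ZBTB7B itself stood at 899, 863 and 951 CPM in the WT libraries and at 555, 547 and 627 CPM in the ZFmut libraries. These counts do not separate the transgene from the cell's own ZBTB7B gene. The ZBTB7B level and the substitution thus differ between the same groups and cannot be told apart. Of the markers of the granule lineage from which medulloblastoma can arise, ATOH1 was at or near 0 in every library (0 to 0.125 CPM). ZIC1 stood at 23.2 to 27.5 CPM, and PTCH1 at 47.1 to 48.2 CPM with WT and 43.2 to 43.3 with ZFmut. GLI1 was at 10.2 to 11.6 CPM with WT and 8.08 to 8.74 with ZFmut, and BARHL1 at 0.207 to 0.348 and 0.0446 to 0.177 CPM. SOX2 was at 19.2 to 23.0 CPM with WT and 35.7 to 41.3 with ZFmut, and NES at 103 to 129 and 145 to 171 CPM. PECAM1, a marker of endothelium, was at 0.158 to 0.405 CPM with WT and 1.25 to 1.46 with ZFmut. GFAP, a marker of astrocytes, was at 0.38 to 0.598 CPM with WT and 0.626 to 1.25 with ZFmut. None of PTCH1, GLI1, BARHL1, SOX2, NES, PECAM1 and GFAP overlapped between groups. The other markers looked at, ZIC2, PAX6, GLI2, OTX2, VIM, EPCAM and RBFOX3, all overlapped, as did ZIC1. Unlike GLI1, GLI2 had the lower mean with WT (43.5 CPM against 49.6 with ZFmut). Without overlap, WT lay above ZFmut for 24.4% of all tested genes and below for 22.8%. The markers of blood (PTPRC, CD3E) were at or below 0.242 CPM in all libraries. The part of these values in the results below was not tested. In bulk RNA, fewer cells in S phase and less histone RNA per cell cannot be told apart.

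Of the 71 genes, 59 had at least 1 read and 12 had none in any library. All 71 together took 201.7, 184.6 and 192.6 CPM in the WT libraries and 170.8, 162.6 and 171.0 CPM in the ZFmut libraries. No WT library fell to the level of a ZFmut library, and the means were 193 ± 8.57 and 168 ± 4.80 CPM (SD, n = 3), a ratio of 1.15. HIST1H1C, which encodes the linker histone H1.2, held 30.4% of this sum, and the 3 genes with the highest CPM held 53.7%. Without HIST1H1C the sums were 138.3, 125.5 and 130.7 CPM with WT against 122.7, 113.9 and 122.8 with ZFmut, and the groups still did not overlap. Without the 6 genes called below the sums were 103.0, 93.8 and 97.2 CPM with WT and 94.95, 93.2 and 98.7 with ZFmut, and the groups overlapped. These sums are descriptions with no test.

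Only 30 of the 71 genes passed the low-count filter and were tested; 29 others had reads but failed it. With WT, 6 of the 30 were higher at an adjusted p under 0.05 (20.0%), against a background of 18.4% over all 18683 tested genes, so the share called higher was close to that of all genes. None was lower in edgeR's quasi-likelihood test, against a background of 17.2%. DESeq2 called none lower either, limma-voom called 2 (HIST3H2A and HIST1H4C), and 3 had an unadjusted p under 0.05 with a lower value (those 2 and HIST1H2BO). All 3 WT libraries lay above all 3 ZFmut libraries for 5 of the 30 (16.7%, background 24.4%), and all lay below for 3 (10.0%, background 22.8%). The log2 difference was above 0 for 19 of the 30 and below 0 for 11. Its median was 0.099, beside 0.004 over all tested genes.

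**Figure D1:**
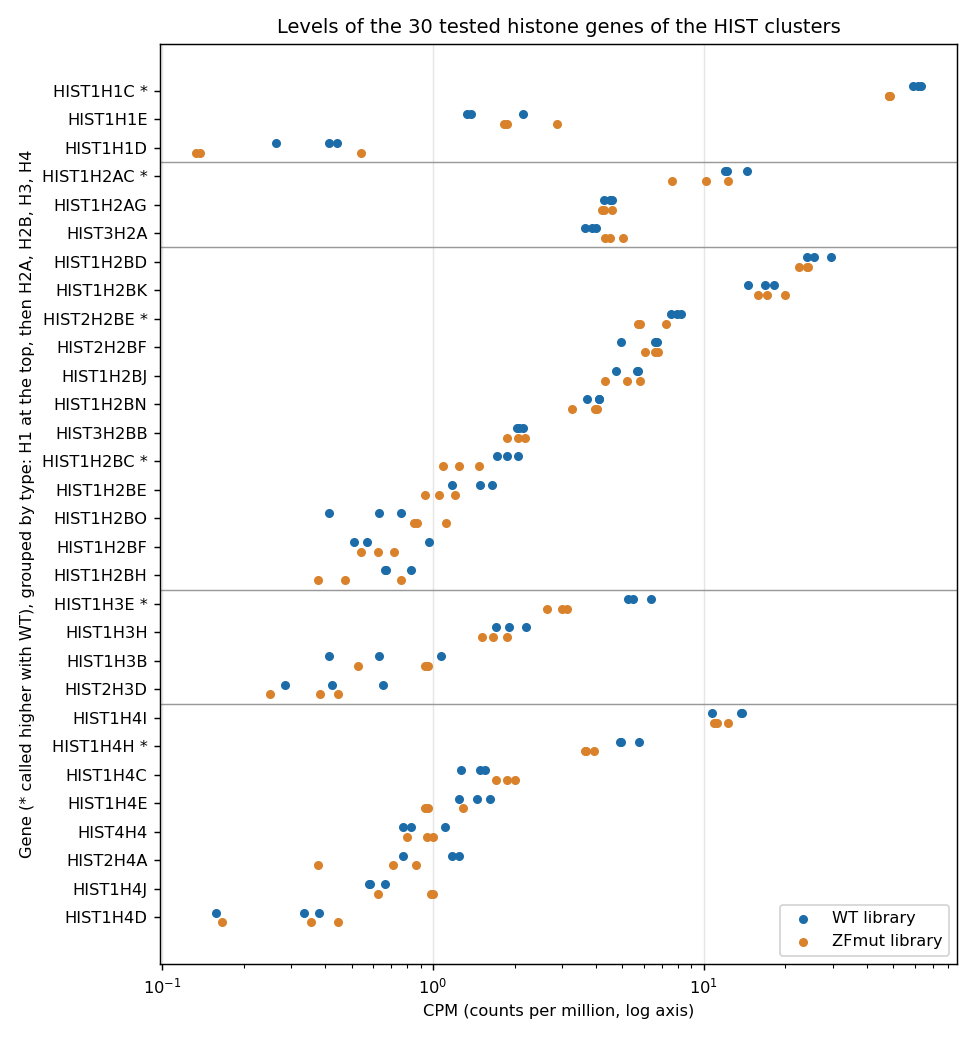
CPM of the 30 tested histone genes in each library (log axis), with WT libraries in blue and ZFmut libraries in orange, grouped by histone type and ordered by mean level; an asterisk marks a gene called higher with WT. HIST1H1C lies furthest right, at 59.1 to 63.4 CPM with WT and 48.1 to 48.7 with ZFmut, and HIST1H3E has the widest gap between the groups among the called genes.

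The linker histone genes number 6, all in the HIST1 cluster on chromosome 6. HIST1H1C (ENSG00000187837, chr6:26055787-26056428, minus strand, GRCh38) is annotated as a single coding exon. It stood at 63.4, 59.1 and 61.9 CPM with WT and at 48.1, 48.7 and 48.2 CPM with ZFmut, and the ZFmut libraries lay within 1 CPM of each other and below every WT library. It was higher with WT by 0.35 ± 0.05 on the log2 scale (SE), 1.27-fold, with an adjusted p of 0.00015. HIST1H1E, the gene of H1.4, was at 1.38, 2.15 and 1.33 CPM with WT and 1.87, 2.88 and 1.84 with ZFmut, which overlap. Its difference was -0.32 ± 0.22 with an adjusted p of 0.290. HIST1H1D, the gene of H1.3, was at 0.414, 0.264 and 0.443 CPM with WT and 0.134, 0.542 and 0.137 with ZFmut. These are low counts: 3 in ZFmut replicate 1, at the limit, and 12 to 15 in the other libraries. The log2 difference of HIST1H1D, 0.72 ± 0.49, had an adjusted p of 0.284. Summed over the 6 genes, H1 stood at 63.8 ± 1.98 CPM with WT and 51.1 ± 1.15 with ZFmut (SD, n = 3). Without HIST1H1C, which holds 95.6% of it, the H1 sum was 2.25, 2.69 and 2.03 CPM with WT and 2.32, 3.71 and 2.25 with ZFmut, and the groups overlapped.

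HIST1H3E, a gene for the core histone H3.1, had the largest fold difference of the called genes. It lies at chr6:26224199-26227473 on the plus strand (ENSG00000274750), with 2 annotated exons and 1908 bases of annotated 3′ UTR in which no stem-loop letters were found. Its levels were 5.46, 5.26 and 6.39 CPM with WT and 3.12, 2.63 and 3.004 CPM with ZFmut, a clear gap. The log2 difference was 0.95 ± 0.13, 1.93-fold, with an adjusted p of 4.1e-05. Of 15 H3 genes, 4 had no read and 4 were tested, and the other 3 tested (HIST1H3H, HIST1H3B and HIST2H3D) were not called, with log2 differences of 0.20, -0.05 and 0.28. HIST1H3E held 53.7% of all H3 CPM. The H3 sum stood at 10.4, 8.82 and 9.56 CPM with WT and 6.43, 6.55 and 6.42 with ZFmut, and without HIST1H3E at 4.90, 3.55 and 3.17 against 3.30, 3.92 and 3.42, which overlap.

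Among the H4 genes, HIST1H4H was the called one. It lies at chr6:26277609-26285638 on the minus strand (ENSG00000158406), and its levels were 5.77, 4.89 and 4.94 CPM with WT and 3.93, 3.63 and 3.68 CPM with ZFmut, with no overlap. The log2 difference was 0.47 ± 0.12, 1.39-fold, with an adjusted p of 0.00573, and the call was lost when all libraries were thinned to the smallest total (0.37, adjusted p = 0.0572). HIST1H4I, the most abundant H4 gene, stood at 13.9, 10.7 and 13.7 CPM with WT and 12.3, 10.9 and 11.2 with ZFmut and was not called (0.14 ± 0.10, adjusted p = 0.305). HIST1H4C was at 1.49, 1.27 and 1.55 CPM with WT and at 1.87, 1.71 and 2.01 with ZFmut. Its WT values lay below all ZFmut values, and its difference of -0.43 ± 0.17 had an adjusted p of 0.0598. HIST4H4, the only gene of the HIST4 cluster on chromosome 12, averaged 0.904 CPM with WT and 0.919 with ZFmut. The H4 sum was 26.1, 20.8 and 25.1 CPM with WT and 22.7, 20.2 and 21.1 with ZFmut, and the groups overlapped.

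**Figure D2:**
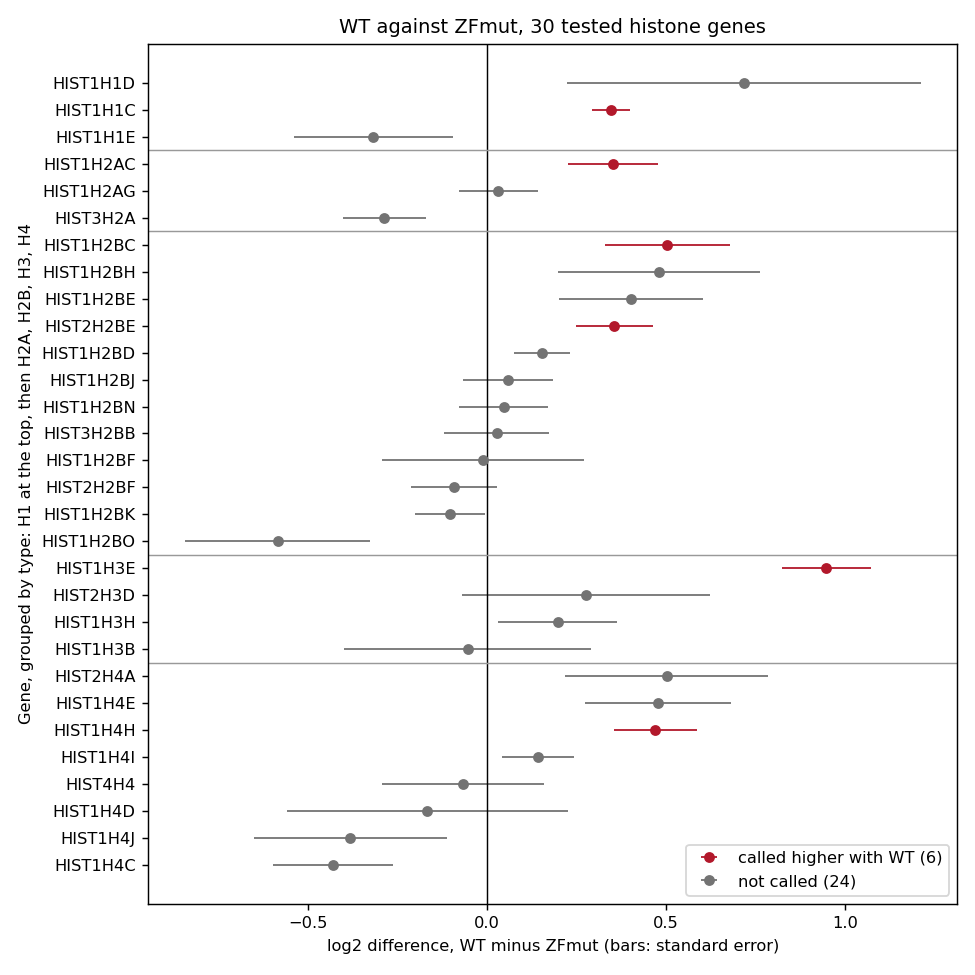
Log2 difference between WT and ZFmut for the 30 tested histone genes, with standard errors as bars, grouped by type; red points are the 6 genes called higher and grey points the 24 not called. HIST1H3E stands at 0.95, the other 5 called genes lie between 0.35 and 0.50, and several uncalled genes with equally large values have wide bars.

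The H2A and H2B genes mostly lie in pairs that are read in opposite directions from a shared stretch of DNA. HIST1H2BC (chr6:26114873-26123926, minus strand, ENSG00000180596) and HIST1H2AC (chr6:26124145-26139116, plus strand, ENSG00000180573) start 219 bases apart in the annotation, and both were higher with WT. HIST1H2AC stood at 14.4, 12.2 and 11.9 CPM with WT and 12.2, 7.64 and 10.2 CPM with ZFmut. The groups overlapped at the ZFmut library of 12.2 CPM, and ZFmut replicate 2 was the lowest library. Its difference was 0.35 ± 0.13 with an adjusted p of 0.0427. That call was lost on leaving out any 1 of the WT libraries, or ZFmut replicate 2, or ZFmut replicate 3 (adjusted p from 0.0523 to 0.162). The log2 difference was 0.22 without ZFmut replicate 2 and 0.39 or 0.40 without WT replicate 2 or 3. The call was also lost with an adjustment for GC content and length (0.21, adjusted p = 0.0821). HIST1H2BC was at 1.73, 1.88 and 2.06 CPM with WT and 1.25, 1.09 and 1.47 with ZFmut, with no overlap. Its difference was 0.50 ± 0.18 with an adjusted p of 0.0362, lost in DESeq2 (adjusted p = 0.136). It was lost too on leaving out WT replicate 2, WT replicate 3, ZFmut replicate 1 or ZFmut replicate 2, each alone (adjusted p from 0.0662 to 0.126). No low-count filter (0.0669), thinning (0.0642) and the adjustment for GC and length (0.0564) also left the adjusted p of HIST1H2BC above 0.05.

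HIST2H2BE, a gene for H2B in the HIST2 cluster on chromosome 1 (chr1:149884459-149886652, minus strand, ENSG00000184678), was the remaining called gene. It stood at 7.94, 7.57 and 8.20 CPM with WT and at 7.27, 5.72 and 5.79 CPM with ZFmut. The highest ZFmut library lay just under the lowest WT library. The difference was 0.35 ± 0.11 with an adjusted p of 0.0187, and the call was lost on leaving out WT replicate 3, ZFmut replicate 2 or ZFmut replicate 3, each alone (adjusted p from 0.0625 to 0.131). It was lost after thinning as well (0.29, adjusted p = 0.0903). Its divergent partner HIST2H2AC starts 323 bases away and averaged 0.146 CPM with 43 reads in all and was not tested. That is 48.7 times fewer CPM, not scaled for gene length.

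The other H2B genes of high CPM were not called. HIST1H2BD, the one with the highest CPM, was at 29.4, 24.1 and 25.5 CPM with WT and 24.0, 22.5 and 24.1 with ZFmut (0.15 ± 0.08, adjusted p = 0.142), and the groups overlapped by a narrow margin. HIST1H2BK was at 14.5, 18.2 and 16.9 CPM with WT and 15.9, 17.1 and 19.9 with ZFmut (-0.10 ± 0.10, adjusted p = 0.438). HIST2H2BF (-0.09) and HIST1H2BJ (0.06) also overlapped between groups. HIST1H2BJ and its divergent partner HIST1H2AG, 292 bases apart, had mean levels of 5.24 and 4.40 CPM and differences of 0.06 and 0.03. Other pairs lay far apart on the CPM scale, which is not scaled for length: HIST1H2BK averaged 17.1 CPM and its partner HIST1H2AH, 331 bases away, 0.102 CPM.

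In the HIST3 cluster no gene was called. HIST3H2A, on chromosome 1, was at 3.87, 4.01 and 3.64 CPM with WT and at 4.33, 4.51 and 5.04 CPM with ZFmut, so every WT library was below every ZFmut library. Its difference was -0.29 ± 0.12 with an adjusted p of 0.0679. HIST3H2BB, its divergent partner 234 bases away, was at 2.07, 2.04 and 2.15 CPM with WT and 2.19, 1.88 and 2.06 with ZFmut (0.03 ± 0.15). Their mean levels were 4.23 and 2.07 CPM.

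By histone type, H2B genes held 39.8% of the CPM of all members, H1 31.7%, H4 12.5%, H2A 11.6% and H3 4.4%. The sums of H1 and H3 did not overlap between groups, at ratios of 1.25 and 1.48, and both rest on 1 gene as shown above. H2A stood at 21.8 ± 1.39 CPM with WT and 19.9 ± 2.01 with ZFmut, and H2B at 73.9 ± 2.17 and 69.4 ± 3.40 (SD, n = 3), and both overlapped. By cluster, HIST1 on chromosome 6 held 55 of the 71 genes and 87.5% of the CPM. Of its 23 tested genes 5 were called higher, beside the background of 18.4% over all tested genes. HIST1 summed to 170.1 CPM with WT and 146.2 with ZFmut, without overlap. HIST2 on chromosome 1 had 12 genes, 4 tested and 1 called, and its sums of 15.9 ± 1.03 and 14.2 ± 1.36 CPM overlapped. HIST3 had 3 genes and sums of 6.07 ± 0.221 and 6.81 ± 0.362 CPM, with WT below ZFmut in every library.

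**Figure D3:**
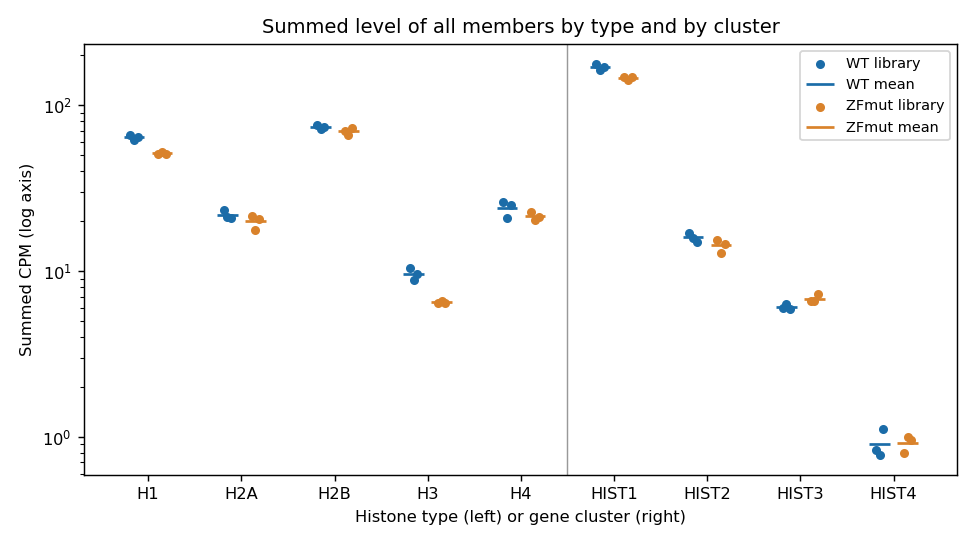
Summed CPM of all members by histone type (left) and gene cluster (right) on a log axis, with 1 point per library and a line at each group mean. H1, H3 and HIST1 have WT libraries above all ZFmut libraries, HIST3 has them below, and the other types and clusters overlap.

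Levels per length put HIST1H1C first at 85.5 CPM per kb of annotated exon, followed by HIST1H2BK at 44.8, HIST1H2BD at 28.6, HIST1H4I at 9.37 and HIST1H2AC at 6.85. HIST1H1C and HIST1H2BK are annotated in release 29 with their coding part alone (642 and 381 bases), which raises their level per length relative to genes with long annotated UTRs. HIST1H3E, by contrast, has 2679 bases of annotated exon and stood at 1.61 CPM per kb. The annotation that the submitters counted on is not given in the sources used here.

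Reads that align to several places and reads that fit more than 1 gene are outside gene counts, so members with near-identical copies or overlapping genes are less certain. Of the 12 members with no read, 7 (HIST1H2AD, HIST2H3C, HIST1H3D, HIST2H2AA3, HIST2H3PS2, HIST1H2AK and HIST2H3A) share at least 98% of their 50-base windows with transcripts of other genes, on either strand. The other 5 (HIST1H2BA, HIST1H2AA, HIST1H2BL, HIST1H4F and HIST1H2BI) share under 15%. For 4 of the 7 the sharing is with a gene annotated at the same place: HIST1H2AD and HIST1H3D lie within AL031777.3 on the same strand for 98 and 100% of their exons, HIST2H3PS2 overlaps AC239798.4 and AC246680.1 (99.5% on its own strand), and HIST1H2AK lies wholly opposite HIST1H2BN. The other 3 of the 7 overlap other genes by at most 10.4%. HIST1H2BA and HIST1H2AA are a divergent pair known from testis. Among tested genes, HIST1H2BK (74.1% shared), HIST2H4A (97.5%), HIST1H4J (81.2%) and HIST2H3D (80.4%) have most windows in common with other genes, and none of these 4 was called. The 6 called genes share between 0 and 8.1% of their windows.

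The tested genes were then described by their annotated 3′ end. The letters AATAAA, the usual poly(A) signal, were searched in the annotated 3′ UTR after the stop codon on the gene's strand. In transcripts where the stem-loop was found, only the bases after it were searched. The letters were found in 22 of the 71 members and in 16 of the 30 tested. Of these 16, 5 were called higher (all of the called genes but HIST1H1C), 15 had a log2 difference above 0, and the median difference was 0.35. Of the 14 tested genes without the letters, 7 have no annotated 3′ UTR and 7 have one in which they were not found. Of the 14, 1 was called higher (HIST1H1C), 4 had a difference above 0, and the median was -0.09. Both counts of called genes stand beside the background of 18.4% higher over all tested genes, and both medians beside 0.004 over all tested genes. The 7 with an annotated 3′ UTR in which the letters were not found had a median difference of -0.29 and no called gene. Other 3′ end features gave smaller medians than 0.35. It was 0.20 for 17 tested genes with over 100 annotated bases after the stem-loop (4 called). It was 0.15 for 19 with the stem-loop (4 called) and 0.15 for 22 with at least 50 bases of 3′ UTR (5 called). Long annotated ends also occur without the letters: HIST4H4 has 1510 bases after its stem-loop, HIST1H2BF 732 and HIST3H2A 390. Both groups are described with no test, because the search for these letters was added after values of the members had been seen. The genes with the letters also had more reads, with a median of 1.70 CPM over all 22 members against 0.0583 over the other 49.

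**Figure D4:**
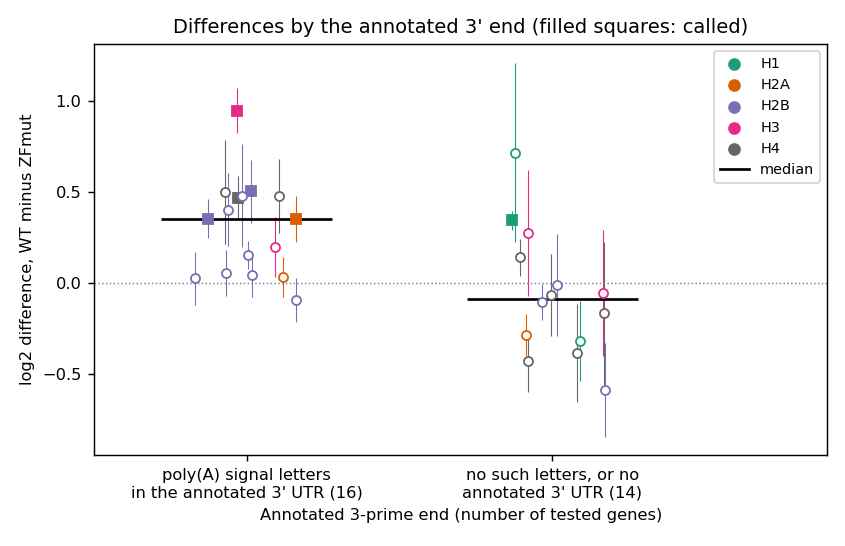
Log2 difference of each tested histone gene, with its standard error, split by whether the letters of the poly(A) signal were found in its annotated 3′ UTR; colours give the histone type, filled squares called genes and lines the medians. The left group of 16 centres on 0.35 and the right group of 14 on -0.09, with HIST1H1C the only called gene on the right.

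Summed over all 22 members with the letters, levels were 95.6, 83.3 and 87.5 CPM with WT and 79.2, 68.9 and 76.1 with ZFmut, with no overlap. For the other 49 members levels were 106.1, 101.3 and 105.1 CPM with WT and 91.6, 93.7 and 94.9 with ZFmut, and every WT library again lay above every ZFmut library. That direction rests on HIST1H1C: without it the 48 genes left summed to 42.7, 42.3 and 43.3 CPM with WT and 43.5, 45.0 and 46.7 with ZFmut, where the WT libraries lay just below. The other called genes were not taken out of the first sum. The sums with and without the letters were thus not treated alike, and their directions cannot be set against each other. Without all 6 called genes, the sums over all members overlapped, as given above. Over the 16 alternatives the median difference of the tested genes with the letters lay between 0.26 and 0.39, and that of those without between -0.26 and -0.02. The alternatives reuse the same libraries, so they are no test of a split that was added after values had been seen. Adjusting for GC and length gave 0.26 and -0.11. Most of the genes with the letters also carry the stem-loop: 20 members hold both, and 14 of these were tested, with 4 called and a median of 0.35. HIST1H3E and HIST1H2BJ are the tested genes that have the letters with no stem-loop found.

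Stretches upstream of the start sites of 5 called genes are shown because HIST1H2BC and HIST1H2AC share one and were both higher. They come from RefSeq on GRCh38.p14, where 65 of the 71 members were matched; HIST1H2AH, HIST1H2BE, HIST1H3I, HIST1H3J, HIST1H4A and HIST1H4C were not. Capitals mark the motifs searched on both strands: the TATA box TATAAA, the CCAAT box CCAAT, the octamer ATTTGCAT, the H1 box AAACACA and GACCACC, letters from the core of the known binding motif of ZBTB7B. No motif contains another. The stretches are HIST1H1C (chr6:26056471-26056720, minus strand), HIST1H3E (chr6:26223928-26224177, plus strand), the bases between the RefSeq starts of HIST1H2BC and HIST1H2AC (chr6:26123927-26124171, plus strand) and HIST2H2BE (chr1:149886683-149886932, minus strand).
HIST1H1C: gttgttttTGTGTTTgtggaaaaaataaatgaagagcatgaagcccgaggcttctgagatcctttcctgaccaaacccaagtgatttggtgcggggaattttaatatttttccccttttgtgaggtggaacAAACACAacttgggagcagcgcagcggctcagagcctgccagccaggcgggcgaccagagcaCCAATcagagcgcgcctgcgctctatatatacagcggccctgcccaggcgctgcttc
HIST1H3E: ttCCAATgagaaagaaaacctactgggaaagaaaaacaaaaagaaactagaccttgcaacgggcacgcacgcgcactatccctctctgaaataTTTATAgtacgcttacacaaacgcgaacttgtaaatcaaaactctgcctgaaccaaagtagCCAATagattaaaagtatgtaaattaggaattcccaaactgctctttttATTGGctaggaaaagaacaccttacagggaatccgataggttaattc
HIST1H2BC/HIST1H2AC: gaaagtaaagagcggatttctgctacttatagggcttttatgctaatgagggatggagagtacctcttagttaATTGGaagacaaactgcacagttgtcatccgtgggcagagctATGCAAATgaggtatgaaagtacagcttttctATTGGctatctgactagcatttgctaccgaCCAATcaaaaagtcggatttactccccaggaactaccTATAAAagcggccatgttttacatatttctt
HIST2H2BE: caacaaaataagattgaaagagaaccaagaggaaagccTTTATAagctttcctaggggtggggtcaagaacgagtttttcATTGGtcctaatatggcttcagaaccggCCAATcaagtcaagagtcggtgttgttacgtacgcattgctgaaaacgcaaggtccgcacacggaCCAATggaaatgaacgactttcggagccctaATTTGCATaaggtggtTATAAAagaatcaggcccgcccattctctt
Over windows of 300 bases, 250 before to 50 after each start, TATAAA was found in 67.7% of the 65 member promoters and in 11.53% of all 35116 RefSeq promoters. CCAAT was found in 84.6% against 34.61%, in all H1, H2A, H2B and H3 promoters but in only 23.1% of the H4 promoters. The octamer, bound by POU2F1 and known from H2B promoters, was in 36.9% against 1.77% and lay in 76.5% of H2B and 68.8% of H2A promoters, where divergent pairs share it, and in no H1, H3 or H4 promoter. AAACACA was in all 6 H1 promoters and in 13.8% of all members against 5.64%. GACCACC was in 2 member promoters (HIST1H3B and HIST1H4L), 3.1% against 2.98% of all promoters, and in none of those of the called genes. HIST1H4H held none of the 5 motifs in its window, which says only that these letters were not there.

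Genes that serve histone supply were taken from 7 lists, read against the same background shares. Factors that act at histone promoters in S phase, with cyclin E and CDK2, had 2 higher and 2 lower of 15 tested and a median difference of 0.02. NPAT, the cofactor that drives the clusters, was at 24.1 ± 1.01 CPM with WT and 21.9 ± 1.34 with ZFmut and was not called (0.14 ± 0.07, adjusted p = 0.136). CDK2, the kinase that activates NPAT, fell by 0.29 on the log2 scale (SE 0.06, adjusted p = 0.000965), while CCNE2, its cyclin E2 partner, was higher by 0.44 ± 0.11 (adjusted p = 0.00485). CDC25A, a phosphatase that activates CDK2, fell by 0.18 (adjusted p = 0.0178).

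The factors of histone message 3′ end formation and decay had 4 higher and 7 lower of 27, with a median of -0.07. SLBP, the protein that binds the stem-loop, was at 96.4 ± 2.22 CPM with WT and 97.1 ± 5.67 with ZFmut (-0.01 ± 0.05, adjusted p = 0.9). LSM11, a subunit of the U7 snRNP ring, was higher by 0.29 ± 0.06 (adjusted p = 0.00169), and so was TUT7, a uridylyl transferase, by 0.26 ± 0.06 (adjusted p = 0.00262). Their close partners were lower: LSM10, also of that ring (-0.26 ± 0.07, adjusted p = 0.0106), and TUT4, also a uridylyl transferase (-0.18 ± 0.06, adjusted p = 0.0319). SNRPB, a core Sm protein shared with spliceosomal snRNPs, fell by 0.27 ± 0.06 (SNRPB adjusted p = 0.0045). The count of lower genes in this list ran from 3 without WT replicate 3 to 11 without ZFmut replicate 1, and it was 4 on leaving out WT replicate 1, ZFmut replicate 2 or ZFmut replicate 3. In the general poly(A) machinery 1 of 17 was higher (XRN1, an exonuclease, 0.25 ± 0.06) and 2 were lower (PABPC4, a poly(A) binding protein, -0.24 ± 0.06, and CSTF3, a cleavage factor, -0.20 ± 0.05).

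Of the list of histone variants outside the clusters, 11 of 17 were tested, with 3 higher, none lower and a median of 0.04. H2AFY2, a macroH2A, was higher by 0.30 ± 0.06 (adjusted p = 0.0014), H3F3A, which encodes H3.3, by 0.25 ± 0.05 (adjusted p = 0.00255) and H2AFV by 0.15 ± 0.05 (adjusted p = 0.0435). H3F3B, which also encodes H3.3, had more CPM than H3F3A (720.8 with WT and 703.0 with ZFmut, against 321.6 and 270.8). It was not called (0.04 ± 0.05, adjusted p = 0.586). H2AFX, the variant that is phosphorylated at DNA breaks, was at 120.4 ± 12.8 CPM with WT and 138.6 ± 16.6 with ZFmut and was not called (-0.20 ± 0.09, adjusted p = 0.0782). Neither DESeq2 nor limma-voom called a variant lower in WT, and H1FX and H2AFX had an unadjusted p under 0.05 with a lower value. Among chaperones and assembly factors, 6 of 28 were higher and 10 lower, with a median of -0.08. UBN2, a subunit of the HIRA complex that deposits H3.3, was higher by 0.43 ± 0.07 (adjusted p = 0.000181), RBBP4, a histone-binding subunit of CAF-1, by 0.28 ± 0.05 and NAP1L1, a chaperone of H2A and H2B, by 0.27 ± 0.05. The genes next by adjusted p were lower: MCM2 (-0.29 ± 0.07, adjusted p = 0.00353) and CHAF1A, another subunit of CAF-1 (-0.21 ± 0.05, adjusted p = 0.00449). Leaving out WT replicate 1, ZFmut replicate 3 or WT replicate 3 gave 3 higher chaperones each.

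Among other S-phase transcripts, most of those called were lower with WT. Of 35 DNA replication genes, 17 were lower and 1 was higher with WT, with a median of -0.13, beside backgrounds of 17.2 and 18.4%. POLD1, a DNA polymerase subunit, fell by 0.55 ± 0.08 (adjusted p = 0.00013) and TYMS, which makes thymidylate, by 0.38 ± 0.07 (adjusted p = 0.00061), while RRM2, a ribonucleotide reductase subunit, was higher by 0.29 ± 0.05 (adjusted p = 0.000537). The count of lower genes was 10 without WT replicate 1, 9 without WT replicate 3, 11 without ZFmut replicate 2 and 10 without ZFmut replicate 3. Of 21 genes of G2 and mitosis, 5 were lower and none higher, with a median of -0.06 and no gene higher by DESeq2, by limma-voom or at an unadjusted p under 0.05. PLK1 and AURKB, mitotic kinases, were lower by -0.36 ± 0.06 and -0.25 ± 0.06, and CDC20, an activator of the anaphase complex, by -0.33 ± 0.06. The count of lower mitotic genes was 3 without WT replicate 3. How far cell cycle position moved with the histone genes was not tested.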

How the data were processed

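Total RNA (2 µg input) of 6 Daoy libraries was prepared with the NEBNext Ultra RNA kit, per the labels' protocols; this kit is not stranded. The authors deposited raw counts of reads per gene; cutadapt, TopHat2 2.0.9, HTSeq and DESeq2 with the GRCh38 genome are named in the submitters' processing notes. Annotation release, strand setting, read length and any poly(A) selection: not given in the sources used here. The last matters because most histone messages have no poly(A) tail. Lines that name no gene (ambiguous 7.71 to 8.08%, no feature 5.04 to 6.56% and not uniquely aligned 16.1 to 19.4% of the total) were left out.

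Symbols, positions and exon lengths came from GENCODE release 29, which held 56996 (94.12%) of 60554 identifiers. Counts were fitted with edgeR 4.0.16 in R 4.3.3 (TMM, filterByExpr with a minimum count of 10, two-sided quasi-likelihood F test, no covariates), and p-values were adjusted by Benjamini and Hochberg over 18683 genes. CPM use TMM library sizes. The test was checked on simulated data. DESeq2 1.42.0, limma-voom (limma 3.58.1), other scalings, other filters, leaving out libraries, a replicate block, GC and length offsets and thinning were alternatives. Sums by type and cluster are descriptions with no test.

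Named were the called members, the 12 most abundant, the most abundant of each type and cluster, SLBP, NPAT and H2AFX, and up to 3 called genes of each list by p. HIST1H1D, HIST1H1E, HIST1H3B, HIST1H3H, HIST1H4C, HIST2H3D, HIST1H2BO, HIST3H2BB and other members with a feature under discussion were named after their values were seen. So were MCM2, CHAF1A, LSM10, TUT4 and H3F3B of the lists. The members and lists were chosen with earlier results of these data known. MIZF and PAPD5 of the lists had no identifier, and MIZF is an older name of HINFP, which is in the same list.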

Additional observations from a re-analysis of the deposited data

How the results depend on the processing

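The 6 members called higher became 3 after thinning to the smallest total and 3 to 6 when 1 library was left out, namely 3 without WT replicate 3. They became 8 with the replicate block, which added HIST1H2BD (adjusted p = 0.0343) and HIST2H4A, and 4 with the GC and length correction. The count called lower, 0, became 2 in limma-voom, 1 with the replicate block, 1 with the GC and length correction, 1 after thinning and 0 to 1 when 1 library was left out. HIST1H1C (0.314 to 0.425) and HIST1H3E (0.841 to 1.047) kept their calls in all 16 alternatives. Of 467 values of the 30 tested members, 410 kept direction and call, 19 lost a call, 11 gained one and 27 changed sign, all in uncalled genes. Leaving out 1 library, the ranges that crossed 0 were -0.183 to 0.011 for HIST1H2BK, -0.168 to 0.029 for HIST2H2BF, -0.032 to 0.156 for HIST1H2BJ, -0.038 to 0.124 for HIST1H2BN, -0.017 to 0.048 for HIST3H2BB, -0.224 to 0.064 for HIST4H4, -0.460 to 0.165 for HIST1H3B, -0.304 to 0.215 for HIST1H2BF, -0.004 to 0.480 for HIST2H3D and -0.350 to 0.081 for HIST1H4D. The GC and length correction gave 0.005 for HIST1H2BK, -0.039 for HIST1H2AG, -0.109 for HIST1H2BN and 0.056 for HIST1H3B, and with the replicate block 0.009, -0.035 and -0.088 for HIST1H2BK, HIST1H2AG and HIST1H2BN. Thinning gave -0.133 for HIST3H2BB, 0.045 for HIST4H4 and 0.18 for HIST1H2BF, for which DESeq2 gave 0.054 and the replicate block 0.030. Without their most abundant member, the log2 ratios of summed CPM became -0.250 for H1, -0.152 for H2A, 0.128 for H3 and 0.031 for HIST3, since 1 gene carries much of each sum. HIST4, at -0.024, was 0.004 with plain library totals and -0.197 to 0.076 without 1 library. The cause of the other changes was not tested. Libraries of the same replicate number gave correlations of 0.164, 0.077 and 0.064, and each library correlated best with its own number. With 3 libraries per group these low values cannot tell whether the numbers pair the libraries. List counts also moved: lower S-phase genes ran from 9 to 26 (17 as reported), lower 3′ end and decay factors from 3 to 13 (7), lower chaperones from 7 to 15 (10), higher chaperones from 2 to 7 (6), lower G2 and mitosis genes from 3 to 16 (5), lower poly(A) factors from 2 to 8 (2), higher poly(A) factors from 0 to 3 (1), higher S-phase genes from 1 to 3 (1), lower variants from 0 to 2 (0), and promoter factors from 1 to 5 in each direction (2). None of the 41 untested members averaged over 0.249 CPM; the parts of depth, shared sequence and overlapping genes in this were not tested.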

Other observations

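Pseudogenes named in the HIST style were counted separately. Of 19 loci, 14 had reads, 1920 in all, and HIST2H2BC held 81.1% of these. It stood at 6.94, 5.65 and 6.96 CPM with WT and 5.40, 5.67 and 5.48 with ZFmut, which overlap, with a log2 difference of 0.23 ± 0.11 and an adjusted p of 0.130. Of the 19 loci, 3 were tested and none was called.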
